A study of Mus musculus with 8 samples.

Results

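The genes described here encode the Tal1, Lyl1 and Lmo2 complex, a set of DNA-binding and bridging proteins of blood progenitors. They were taken from a list of names, namely Tal1, Lyl1, Lmo2, Ldb1, Cbfa2t3, Tcf3 and Tcf12, which are 7 of the 21887 protein-coding genes examined. All 7 were found in the RefSeq table of the mouse assembly GRCm38.p6, and each was examined over its span with 50 kb added on either side, called its window. Chromatin immunoprecipitation with sequencing (ChIP-seq) was performed on EML_C1 cells labelled as strain C57BL/6 at passage 4-5, a mouse haematopoietic progenitor line grown in stem cell factor. There were 2 replicates each for Ezh2, for trimethylation of lysine 27 on histone H3 (H3K27me3) and for Runx1. Fixation was by formaldehyde for H3K27me3, and by DSG before formaldehyde for the other antibodies. All libraries came from untreated cells of the same line, so no genotype or treatment was compared. EML cells carry a dominant-negative retinoic acid receptor that holds them as progenitors, and a single line is a limited model of progenitors in the marrow. No RNA was measured, so the markers of the cell type could not be checked.

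Tal1 and Lyl1 are related basic helix-loop-helix (bHLH) transcription factors that bind the E-box sequence as dimers with E proteins, which Tcf3 and Tcf12 encode. Lmo2 is a LIM-only protein that does not bind DNA and links the bHLH dimer to Ldb1, which forms dimers with itself and can join distant DNA elements, while Cbfa2t3 (also called Eto2) is a corepressor that joins the complex. In mouse progenitors Tal1, Lyl1 and Lmo2 bind many of the same sites as the transcription factor Runx1, and the Tal1, Lyl1 and Lmo2 genes act as oncogenes in human T-cell leukaemia. Ezh2 is the enzyme of a Polycomb repressive complex that places H3K27me3, a mark of repressed chromatin.

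Each library was deposited as its own list of peaks, and the fold enrichment of a peak is the value that the authors' peak caller gave it. The 6 lists held 178354 and 159007 Ezh2 peaks, 220455 and 178423 H3K27me3 peaks, and 64059 and 66153 Runx1 peaks in replicates 1 and 2. Peaks of both replicates that overlapped by at least 1 bp were merged, and only regions to which both replicates contributed were kept, which gave 65288 Ezh2, 110636 H3K27me3 and 44027 Runx1 regions. A gene end was called bound where the same stretch of 1 kb either side of it held a peak in both replicates. The Ezh2 and H3K27me3 lists were weak, since a q-value of at most 0.01 was reached by 20.2% and 14.1% of the Ezh2 peaks and by 6.13% and 1.34% of the H3K27me3 peaks, against 60.0% and 69.3% of the Runx1 peaks. H3K27me3 peaks are broad and the others narrow, so folds are not compared between them. The depth of the libraries is not given in the sources used here, nor whether the replicates were separate cultures, and no test was run, since peak lists hold no value where no peak was called and 2 libraries per antibody give little power. A fold averages over the culture, so weaker binding and binding in fewer cells cannot be told apart.

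Runx1 was bound at an end of 5 of the 7 genes, Tal1, Lyl1, Cbfa2t3, Tcf3 and Tcf12, whereas Lmo2 and Ldb1 carried it at neither end. Over all protein-coding genes the share with Runx1 at an end was 45.3%. Ezh2 was called at an end of 0 of the 7 genes, against 18.4% of all genes, and H3K27me3 at an end of 0 of the 7, against 30.6% of all genes. Runx1 without Ezh2 or H3K27me3 was thus the state of the ends of 5 of the 7 genes, against 38.6% of all genes. Of the 6 genes for which the promoter table gives a start, all 6 had Runx1 within 1 kb of one, Ldb1 at a start inside its span, against 46.1% of the 17492 genes with such a start. Ezh2 and H3K27me3 were at 0 of these 6, against 15.2% and 26.0%.

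The spread in Runx1 fold among the 5 bound genes was wide. By mean, Lyl1 had the highest peak at an end, with folds of 27.4 and 40.1 in replicates 1 and 2 (33.7 ± 9.01, SD, n = 2). Tcf3 followed with 31.9 and 28.2 (30.0 ± 2.61, SD, n = 2). These genes overlapped each other in fold, and both lay above the remaining genes in each replicate. The place of Lyl1 rests on a region near its far end that is also near an end of Nfix. The region over the Lyl1 start had 26.0 and 22.8, below Tcf3 in both replicates. Cbfa2t3 had 7.59 and 6.97 (7.28 ± 0.440, SD, n = 2), Tal1 had 6.32 and 6.37 (6.35 ± 0.0317, SD, n = 2), and Tcf12 had 4.70 and 4.79 (4.74 ± 0.0592, SD, n = 2). The last 3 genes kept the same order in both replicates, with Tcf12 the lowest. The place of Cbfa2t3 rests on the stretch of 1 kb, since a region centred 1.82 kb before its first start, outside that stretch, had folds of 31.9 and 28.0.

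**Figure D1:**
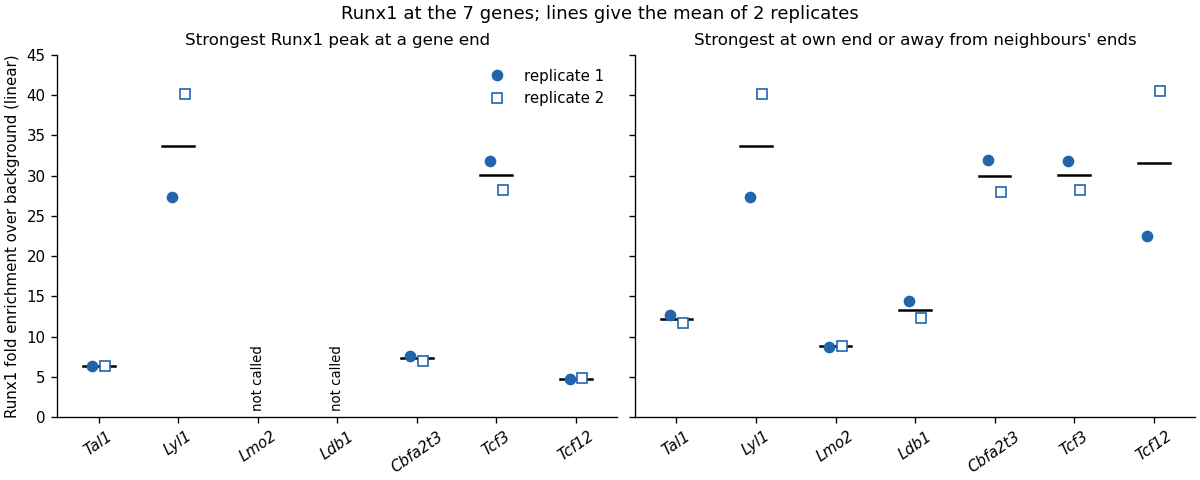
Runx1 fold enrichment (linear axis) of each gene in replicate 1 (filled circle) and replicate 2 (open square), with the mean as a line; the left panel shows the strongest peak within 1 kb of a gene end and the right panel the strongest region among those at the gene's own ends, at its other starts or away from the ends of neighbours. The Lyl1 region of both panels is also near an end of Nfix. Lyl1 and Tcf3 have mean folds of 33.7 and 30.0 in both panels, Lmo2 and Ldb1 have no value on the left, and Tcf12 and Cbfa2t3 are far higher on the right than on the left.

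Over the whole windows, ends included, all 7 genes had Runx1 regions, against 78.9% of all genes. The highest mean fold in the window was 10 or more for 7 of the 7 genes, against 53.4% of all genes. The windows held 9 Runx1 regions for Tal1, 21 for Lyl1, 4 for Lmo2, 9 for Ldb1, 23 for Cbfa2t3, 12 for Tcf3 and 17 for Tcf12, 95 in all. A single replicate moved 3 of these by over 1.5 times: replicate 2 alone gave 10 for Lmo2 and 30 for Tcf12, and replicate 1 alone gave 14 for Tal1. Since the windows differ in length, the number is also given per 100 kb of window: its median was 7.80 over the 7 genes and 2.90 over all genes, whose quartiles were 0.758 and 5.71. Lyl1 had 20.3 regions per 100 kb and Cbfa2t3 had 13.2, both above the upper quartile of all genes. Lmo2 had 3.23 and Tcf12 had 4.62, both inside the quartiles. The order of Lmo2 and Tcf12 depended on the setting: at a q-value of at most 0.01 Lmo2 had 4 regions in 124 kb of window and Tcf12 had 10 in 368 kb. The highest mean fold in the window had a median of 36.4 over the 7 genes and 11.2 over all genes. These medians describe genes chosen by name, and genes are not replicates.

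**Figure D2:**
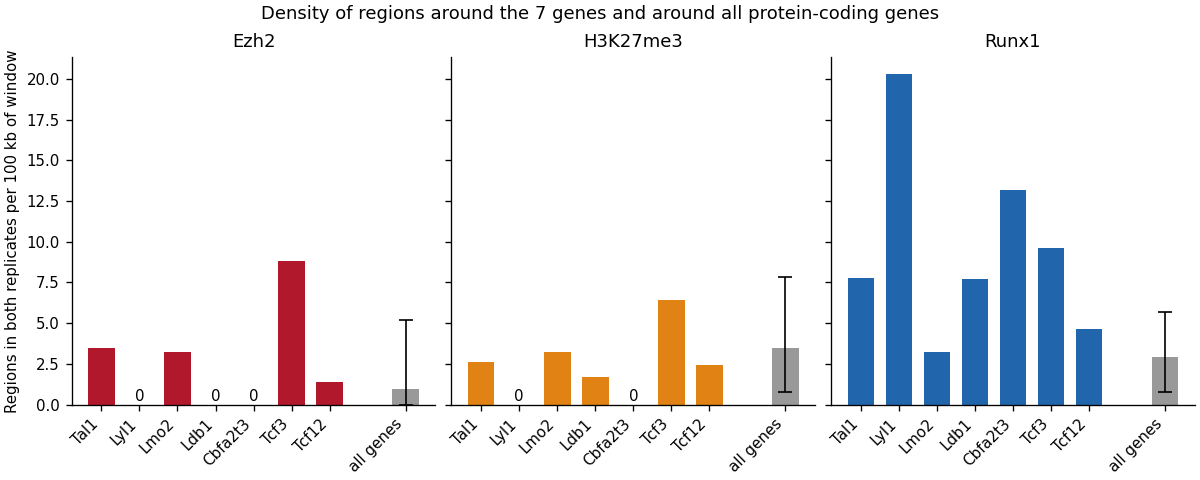
Regions found in both replicates per 100 kb of window (linear axis from 0) for Ezh2, H3K27me3 and Runx1, with a bar per gene and, in grey, the median of all protein-coding genes with its quartiles as the error bar. Runx1 bars of 5 of the 7 genes stand above the upper quartile of all genes at 5.71, while Lyl1 and Cbfa2t3 have no Ezh2 or H3K27me3 region.

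Of the 95 Runx1 regions, 9 lay at an end of the gene itself and 2 at another of its RefSeq starts. A further 25 lay inside the gene, 28 between genes, 10 inside another gene and 21 at the end of a neighbouring gene. Most regions were thus away from the gene's own ends, but the end stretches are a small part of each window. The same split was not counted over all genes. A region within 1 kb of an end of the gene itself was counted there even where it was also near a neighbour's end. The strongest region in the window lay at the end of a neighbour alone for 4 of the 7 genes (Lmo2, Ldb1, Cbfa2t3 and Tcf3), that of Lyl1 lay at an end of both Lyl1 and its neighbour Nfix, and position alone does not say which gene such a region acts on. A q-value of at most 0.01 in both replicates was reached by 75 of the 95 regions, against 78.1% of all Runx1 regions, and their median mean fold was 4.20 against 4.69 for all Runx1 regions.

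The sequences of the 6 promoters that lie wholly inside a Runx1 region are printed to show the DNA under these regions. They are RefSeq promoters on GRCm38.p6, each 300 bases from 250 before to 50 after a start, on the strand of the gene. Promoters were found for 6 of the 7 genes, 12 in all, and Lmo2 had none in the table. Of the 12, 7 touched a Runx1 region, and 5 held the mean summit of that region. The printed Lyl1 run does not hold it. The printed Tal1 run lies in a weak region, with folds of 2.05 and 1.62, that reached a q-value of at most 0.01 in neither replicate. Capitals mark E-boxes (CANNTG, the site of bHLH dimers, which reads the same class of letters on both strands), GATA (or TATC on the other strand, the core that GATA factors read) and the Runx core (TGTGGT or TGCGGT, or ACCACA or ACCGCA on the other strand), of which the Tal1 and Ldb1 runs hold none. The promoters lie on the + strand for Tal1 (second start, chr4:115057561-115057860) and Lyl1 (chr8:84701207-84701506), and on the - strand for Ldb1 (second start, chr19:46039572-46039871), Cbfa2t3 (chr8:122699060-122699359), Tcf3 (chr10:80433586-80433885) and Tcf12 (chr9:72111770-72112069).
Tal1: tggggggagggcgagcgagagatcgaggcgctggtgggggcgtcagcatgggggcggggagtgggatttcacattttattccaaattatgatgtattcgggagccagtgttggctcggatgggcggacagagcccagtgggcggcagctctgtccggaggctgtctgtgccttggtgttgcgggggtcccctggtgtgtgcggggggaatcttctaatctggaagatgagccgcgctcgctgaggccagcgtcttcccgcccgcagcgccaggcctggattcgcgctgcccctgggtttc
Lyl1: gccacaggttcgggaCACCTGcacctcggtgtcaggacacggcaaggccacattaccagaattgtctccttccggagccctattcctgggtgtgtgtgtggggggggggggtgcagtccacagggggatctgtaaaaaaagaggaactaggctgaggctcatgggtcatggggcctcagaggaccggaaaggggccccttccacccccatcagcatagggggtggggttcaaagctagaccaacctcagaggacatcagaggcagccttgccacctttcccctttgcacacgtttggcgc
Ldb1: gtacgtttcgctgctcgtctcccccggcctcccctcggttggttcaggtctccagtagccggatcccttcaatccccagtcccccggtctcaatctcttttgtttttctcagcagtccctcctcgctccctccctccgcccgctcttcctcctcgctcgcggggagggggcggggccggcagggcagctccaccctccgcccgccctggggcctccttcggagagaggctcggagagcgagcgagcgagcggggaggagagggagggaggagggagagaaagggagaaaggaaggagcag
Cbfa2t3: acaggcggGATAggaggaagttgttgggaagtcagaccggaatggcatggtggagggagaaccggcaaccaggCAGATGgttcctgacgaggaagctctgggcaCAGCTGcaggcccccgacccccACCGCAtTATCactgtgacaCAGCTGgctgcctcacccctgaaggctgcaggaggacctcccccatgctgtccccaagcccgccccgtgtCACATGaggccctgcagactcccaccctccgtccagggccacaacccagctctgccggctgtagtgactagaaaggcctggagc
Tcf3: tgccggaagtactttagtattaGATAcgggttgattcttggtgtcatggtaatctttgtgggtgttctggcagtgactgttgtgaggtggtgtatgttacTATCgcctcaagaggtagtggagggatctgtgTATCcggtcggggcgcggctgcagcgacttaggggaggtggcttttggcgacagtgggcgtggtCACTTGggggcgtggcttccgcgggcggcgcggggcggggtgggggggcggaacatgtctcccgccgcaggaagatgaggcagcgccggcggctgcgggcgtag
Tcf12: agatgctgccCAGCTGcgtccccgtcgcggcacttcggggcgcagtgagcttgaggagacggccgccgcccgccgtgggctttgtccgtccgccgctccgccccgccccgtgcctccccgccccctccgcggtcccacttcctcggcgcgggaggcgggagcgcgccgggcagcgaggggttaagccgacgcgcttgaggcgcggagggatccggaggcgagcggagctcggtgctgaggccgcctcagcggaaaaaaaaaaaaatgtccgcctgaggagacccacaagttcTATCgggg

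Among these promoters, that of Cbfa2t3 stood out by its letters. It held the only Runx core of the 12 promoters, ACCGCA at bases 127 to 132 counted from the 5′ end of the printed run, 15 bases from the mean Runx1 summit at base 114. It also held 4 E-boxes and, in the stretch tatcactgtgacacagctg, a GATA match and an E-box 9 bases apart. The Runx core was thus in 1 of the 12 promoters, against 21.6% of the 21263 promoters of the table. An E-box was found in 9 of the 12 and in 69.0% of all promoters, GATA in 6 of the 12 and in 53.2%, and GGAA (or TTCC on the other strand), the core of ETS factor sites, in 12 of the 12 and in 95.7%. An E-box and GATA 6 to 10 bases apart on either strand were found in 1 of the 12, that of Cbfa2t3, and in 2.22% of all promoters. The Runx core, E-box and GATA matches overlapped each other in 1 place over the 12 promoters, where GATA was read on both strands of the first Tal1 promoter. These matches are of letters alone.

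Tal1, the bHLH factor needed for blood cells to form, lies at chr4:115056426-115071755 on the + strand, with RefSeq starts at 115056426 and 115057811. Its end peak, with the folds given above, was centred 0.326 kb past the first start, and a weaker region over the printed second promoter, 1.42 kb past the first start, had folds of 2.05 and 1.62. Upstream, a region inside the neighbour Stil, 21.2 kb before the start, had folds of 3.67 and 3.09, and another 3.69 kb before it had 2.58 and 2.55. The stronger binding lay downstream, on the side where enhancers of Tal1 active in stem cells and in erythroid cells are known. A region 19.3 kb past the first start had folds of 6.38 and 7.19 (6.78 ± 0.570, SD, n = 2), close to those at the start itself. The strongest region of the window lay 39.6 kb past the start, beyond the neighbour Pdzk1ip1, at chr4:115095597-115096288. Its folds were 12.7 and 11.7 (12.2 ± 0.713, SD, n = 2), above every other Tal1 region in both replicates and above 84.1% of all Runx1 regions. Regions 7.48 and 18.5 kb past the start differed between the replicates, with folds of 1.97 and 3.97, and of 2.04 and 3.72.

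H3K27me3 began 2.14 kb beyond the Tal1 region at 39.6 kb, and no Ezh2 or H3K27me3 region lay on its near side within the window. The mark formed 3 regions beyond Pdzk1ip1 and inside Cyp4x1, of which the nearest was centred 27.7 kb outside Tal1, with a mean fold of 2.50 ± 0.432 (SD, n = 2). Ezh2 formed 4 regions inside Cyp4x1, the nearest 37.0 kb outside Tal1 and the strongest with folds of 3.65 and 2.15 (2.90 ± 1.06, SD, n = 2). Neither set reached a q-value of at most 0.01 in both replicates.

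Lyl1, the close relative of Tal1, is a gene of 3.29 kb at chr8:84701423-84704716 on the + strand. It carried strong Runx1 binding at both ends. The region over its start, at chr8:84700974-84701998, had folds of 26.0 and 22.8 (24.4 ± 2.24, SD, n = 2). The one near its far end, at chr8:84703165-84704071 and 2.13 kb past the start, had 27.4 and 40.1. Replicates 1 and 2 thus differed in how far the far region exceeded the first, and the far region is also within 1 kb of an end of Nfix, another transcription factor gene. Between the start and the neighbour Trmt1, regions 1.38 and 0.659 kb before the start had folds of 8.33 and 7.40, and of 2.65 and 3.39.

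Further out in the Lyl1 window, 5 regions clustered at the ends of Ier2, an immediate early gene, and the strongest of them, 37.4 kb before the start, had folds of 20.3 and 22.0 (21.2 ± 1.21, SD, n = 2). Inside Nfix, the most distant regions with a mean fold over 8 lay 29.5 and 36.4 kb past the start, with folds of 7.32 and 11.2, and of 9.20 and 7.54. In the Lyl1 window neither replicate of Ezh2 or H3K27me3 had a peak. The nearest H3K27me3 region to the one over the Lyl1 start was 71.7 kb away, and the nearest Ezh2 region was 77.3 kb away.

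Lmo2, the LIM-only bridge, lies at chr2:103957903-103981878. With no strand in the table used, positions are given from its lower and upper ends. Neither end carried Runx1 in either replicate, and the whole window held 4 regions, all with a q-value of at most 0.01 in both replicates. Distal elements are known to drive Lmo2 in blood and endothelial cells. The strongest region not at a neighbour's end lay 12.2 kb below the lower end, at chr2:103945440-103946145, with folds of 8.74 and 8.88 (8.81 ± 0.0986, SD, n = 2), above 75.8% of all Runx1 regions. A second, 10.8 kb below the lower end, had 4.54 and 4.20. The only region inside the gene, at chr2:103970131-103970521, had 2.99 and 3.08. The replicates were close to each other at these 3 places, and kept the same order of the 3.

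The highest Runx1 fold of the Lmo2 window lay 45.9 kb above the upper end, at chr2:104027331-104028801, where the ends of 4931422A03Rik and Fbxo3 meet. It had 49.9 and 43.9 (46.9 ± 4.22, SD, n = 2), above 98.4% of all Runx1 regions. Between it and Lmo2, inside 4931422A03Rik, lay 4 H3K27me3 regions, the nearest centred 16.2 kb from Lmo2, and 4 Ezh2 regions, the nearest 21.2 kb from it. The strongest Ezh2 region there had folds of 3.30 and 2.83 (3.07 ± 0.333, SD, n = 2), and the strongest H3K27me3 region 2.57 and 2.38 (2.48 ± 0.139, SD, n = 2). Over Lmo2 itself and 1 kb around it, Ezh2 had 2 peaks in replicate 1, with a highest fold of 1.71, and 0 in replicate 2, and H3K27me3 had 0 in both.

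Ldb1, the adaptor that Lmo2 binds, lies at chr19:46031525-46048145 on the - strand, with RefSeq starts at 46045311, 46039621 and 46037070. It had no Runx1 at either outer end, but a region at chr19:46039405-46039918 covered the second start, whose promoter is printed above. Folds there were 14.4 and 12.3 (13.4 ± 1.44, SD, n = 2), above 86.0% of all Runx1 regions. In contrast, the promoters of its other starts touched no Runx1 region. The remaining region inside the gene had 2.36 and 2.65.

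Both stronger Runx1 regions of the Ldb1 window lay at its neighbours. At the end of Hps6, a gene of lysosome-related organelles, folds were 36.6 and 36.2 (36.4 ± 0.303, SD, n = 2). At the end of Nolc1, a nucleolar protein gene, they were 38.0 and 31.0 (34.5 ± 4.92, SD, n = 2). A region at the end of Armh3, with 13.0 and 13.6 (13.3 ± 0.473, SD, n = 2), was close in fold to the one at the second Ldb1 start. The regions at Hps6 and Nolc1 changed order between replicates, so their order is not fixed by these data. The other Runx1 regions of the window had mean folds of 3.98 or less. Ezh2 gave no region that both replicates shared, and H3K27me3 gave 2 between genes, the nearest 10.5 kb from Ldb1 with folds of 2.32 and 1.90.

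Cbfa2t3, the corepressor, lies at chr8:122625136-122699332 on the - strand, and its window held the most Runx1 regions of the 7 genes. The region over its first start is the one on the printed promoter, with 7.59 and 6.97. A far stronger region lay 1.82 kb before that start, outside the printed promoter, at chr8:122700453-122701380, with folds of 31.9 and 28.0 (30.0 ± 2.81, SD, n = 2). Further upstream, in a stretch without a protein-coding gene, regions 13.0 and 20.9 kb before the start had 19.6 and 21.6 (20.6 ± 1.41, SD, n = 2) and 23.9 and 28.0 (25.9 ± 2.88, SD, n = 2). All 3 upstream regions were above the start region in both replicates. The second start, at 122678175, had no Runx1 region on its promoter.

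Inside Cbfa2t3, 7 regions had mean folds between 2.01 and 4.49. At its 3′ end, a wide region of 2657 bp had folds of 5.10 and 4.68 (4.89 ± 0.303, SD, n = 2), and another just outside had 3.24 and 3.36. The highest fold of the window was at the shared end of Galns and Trappc2l, 13.6 kb beyond the 3′ end, with 117 and 97.5 (107 ± 13.6, SD, n = 2), above 99.8% of all Runx1 regions. Neither Ezh2 nor H3K27me3 had a peak in the Cbfa2t3 window in either replicate, and the nearest H3K27me3 region was 141 kb from the Runx1 region over the start. Cbfa2t3 and Lyl1 were thus the 2 of the 7 genes with neither Ezh2 nor H3K27me3 in the window, against 20.0% of all genes. With 100 kb on either side Lyl1 had 11 Ezh2 and 4 H3K27me3 regions, and Cbfa2t3 still had 0 of each. With Ldb1 they were the 3 of the 7 with Runx1 and no Ezh2 region, against 26.2% of all genes.

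Tcf3, which encodes the E proteins E12 and E47, lies at chr10:80409541-80433976 on the - strand. Its Runx1 region covered the printed promoter and had the second highest mean fold at an end, after the far end of Lyl1. No other Runx1 region overlapped the gene. At its neighbours, the region at the end of Mex3d, an RNA-binding protein gene, had 112 and 102 (107 ± 7.48, SD, n = 2), the strongest at the end of Uqcr11 had 17.7 and 16.3 (17.0 ± 0.983, SD, n = 2), and that at the end of Mbd3 had 17.6 and 11.0 (14.3 ± 4.65, SD, n = 2). Upstream of the start, a region 41.8 kb away, at chr10:80475183-80475899, had 12.5 and 10.7 (11.6 ± 1.32, SD, n = 2).

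The Tcf3 window held 11 Ezh2 regions, all in the gene-free stretch upstream of the start, the nearest centred 25.9 kb outside the gene. The strongest had folds of 3.13 and 3.20 (3.17 ± 0.0513, SD, n = 2). With both replicates required this was the highest number of the 7 genes, but the single replicates did not share that order. Replicate 1 alone gave 28 Ezh2 regions for Tcf3, 13 for Tcf12, 8 for Lmo2 and 5 for Tal1, and replicate 2 alone gave 12, 17, 11 and 13 for the same genes. H3K27me3 formed 8 regions, 5 of them between genes, and the widest, of 20955 bp, ran past the window to Onecut3, a homeobox gene, with folds of 3.29 and 2.62 (2.96 ± 0.479, SD, n = 2). It was the only H3K27me3 region of the 7 windows to reach a q-value of at most 0.01 in both replicates. Replicate 2 did so only by a peak outside the window. Of its peaks over the window 0 reached that q-value, and their highest fold was 2.36. The Runx1 region at 41.8 kb lay in the gap of the mark, 2.05 kb from the nearest H3K27me3 region and 1.88 kb from the nearest Ezh2 region. Another Runx1 region, 27.9 kb before the start and with folds of 6.79 and 4.71 (5.75 ± 1.47, SD, n = 2), touched both Ezh2 and H3K27me3. It was the only 1 of the 95 regions to touch Ezh2, and 2 of the 95 touched H3K27me3, both in the Tcf3 window. The shares of all Runx1 regions that touch Ezh2 or H3K27me3 were not counted, so these counts cannot be called particular to the 7 genes.

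Tcf12, which encodes the E protein HEB, is the longest of the genes, at chr9:71844252-72111893 on the - strand. Runx1 at its first start was weak, as given above, and the 14 regions inside the gene included much stronger ones. The strongest, at chr9:71848102-71848798, lay 263 kb past the first start and 4.35 kb inside the lower end, with folds of 22.5 and 40.6 (31.5 ± 12.8, SD, n = 2). It was above 96.6% of all Runx1 regions by its mean, with the widest spread between replicates of any strongest region of a gene relative to its mean. A region 14.5 kb past the first start had 11.3 and 16.5 (13.9 ± 3.64, SD, n = 2). Its other RefSeq starts had no Runx1 on their promoters.

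Over the gene body of Tcf12 neither Ezh2 nor H3K27me3 formed a region, and the same held for the other 6 genes. Over all genes, 24.6% had an Ezh2 region over the span and 36.8% an H3K27me3 region. Long genes are hit more often: among the 2429 genes of 100 kb or more, 52.0% had Ezh2, 65.6% had H3K27me3 and 73.6% had Runx1 over the span. Peaks in 1 replicate were seen over Tcf12, with an Ezh2 peak of fold 2.01 at an end in replicate 1 and an H3K27me3 peak of fold 1.59 in replicate 2. Beyond the lower end, towards and inside the neighbour Cgnl1, lay 5 Ezh2 regions, the nearest centred 26.0 kb away, and 7 H3K27me3 regions, the nearest 19.8 kb away, and 2 more H3K27me3 regions lay on the side of the start. Their strongest had folds of 3.23 and 3.04 for Ezh2 (3.13 ± 0.135, SD, n = 2) and of 2.70 and 2.42 for H3K27me3 (2.55 ± 0.198, SD, n = 2).

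**Figure D3:**
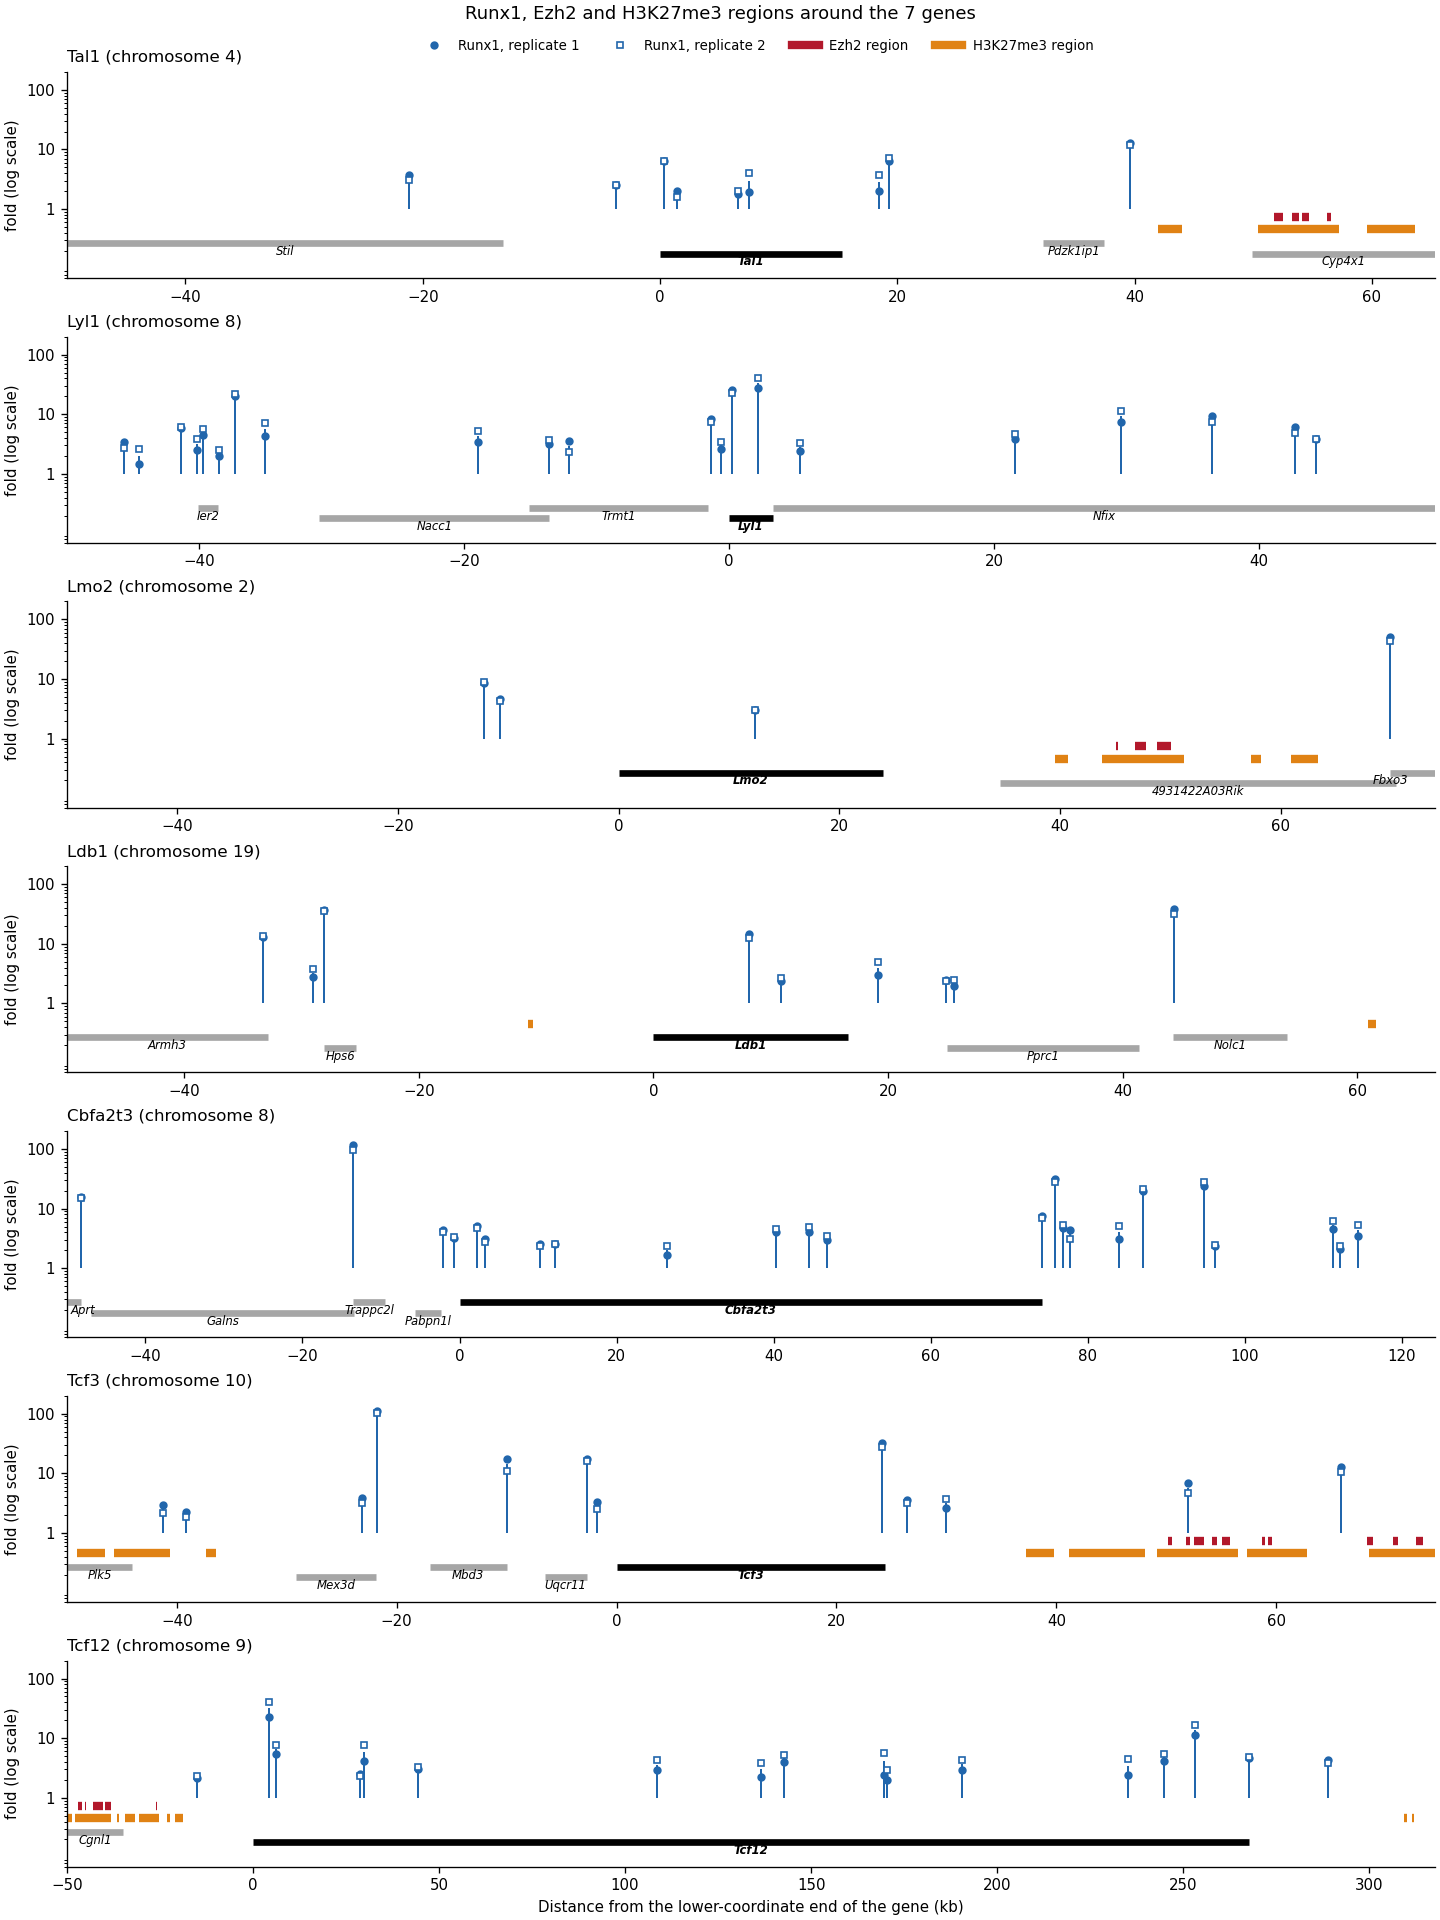
Each panel shows a gene (black) with its neighbours (grey) over its window, with distance in kb from its lower-coordinate end on the x axis, Runx1 fold per replicate on a log axis, and Ezh2 (red) and H3K27me3 (orange) regions as bars below that carry no height. Ezh2 and H3K27me3 bars sit away from the black bar in every panel and are absent for Lyl1 and Cbfa2t3, and the highest Runx1 points of Lmo2, Ldb1, Cbfa2t3 and Tcf3 stand at grey bars.

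Taken over the windows, 4 of the 7 genes (Tal1, Lmo2, Tcf3 and Tcf12) had an Ezh2 region, against 60.6% of all genes, and these 4 with Ldb1 had H3K27me3, which is 5 of the 7, against 78.9% of all genes. A q-value of at most 0.01 in both replicates was reached by 2 of the 24 Ezh2 regions, against 13.9% of all Ezh2 regions, and by 1 of the 26 H3K27me3 regions, against 1.41% of all H3K27me3 regions. That H3K27me3 region, of Tcf3, passed in replicate 2 only by a peak outside the window. All 24 Ezh2 regions of the windows touched H3K27me3, a share that was not counted over all Ezh2 regions. Of the 24, 12 lay inside another gene and 12 between genes. Their mean folds ranged from 2.03 to 3.17, and those of the H3K27me3 regions from 1.80 to 2.96. The number per 100 kb of window had a median of 1.36 for Ezh2 over the 7 genes, against 0.963 over all genes, and of 2.45 for H3K27me3, against 3.50. Both medians lay inside the quartiles of all genes, 0 and 5.17 for Ezh2 and 0.795 and 7.83 for H3K27me3.

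The replicates of Runx1 did not relate to each other in the same way at every gene. Replicate 2 had the higher fold at 57 of the 95 regions, 60.0%, against 67.8% of all 44027 Runx1 regions, where the median log2 of replicate 2 over replicate 1 was 0.19. Tcf12 lay above this, with replicate 2 higher at 15 of its 17 regions and a median log2 of 0.54. Tcf3 lay below it, with replicate 2 higher at 1 of its 12 regions and a median log2 of -0.26. The regions of a gene share a chromosomal neighbourhood and come from the same pair of libraries, so they are not replicates of each other.

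**Figure D4:**
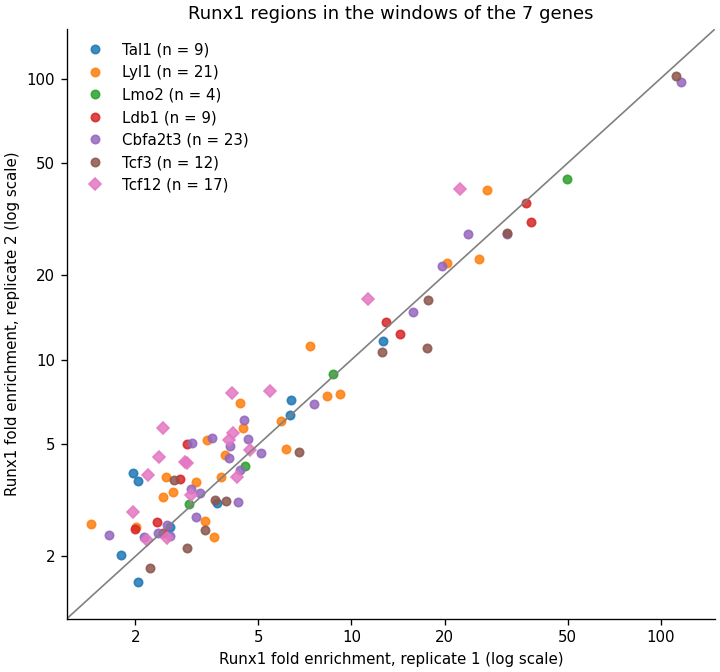
Runx1 fold of each of the 95 regions in replicate 1 (x axis) against replicate 2 (y axis), both on log axes, with a colour per gene and the line of equal folds. Tcf12 (diamonds) lies above the line at 15 of its 17 regions and Tcf3 below it at all but 1 of its 12.

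For each gene, the gene elsewhere in the genome whose 6 highest window folds were nearest was looked up, by the Euclidean distance of log2(fold + 1) over the 6 lists. It was Olfr49 for Tal1 (distance 0.117), Rab38 for Lyl1 (0.0884), Eea1 for Lmo2 (0.0781), Fbxl18 for Ldb1 (0.181), Stap1 for Cbfa2t3 (0.0277), Uba6 for Tcf3 (0.205) and Agfg1 for Tcf12 (0.177). None of the 7 genes was nearest to another of them, which says little where 1 nearest gene is drawn from 21887. For Lmo2, Ldb1, Cbfa2t3 and Tcf3 the highest Runx1 fold lay at a neighbour's end, so the likeness is of windows and not of the genes. Cbfa2t3 had the nearest match, with highest Runx1 folds of 117 and 97.5 for Cbfa2t3 and of 117 and 95.6 for Stap1, and no Ezh2 or H3K27me3 peak in either window. Uba6, the match of Tcf3, lies on the same chromosome as Stap1 and had the same highest Runx1 folds in both replicates. Both matches may thus rest on the same peaks, whose positions were not compared.

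A list of 41 genes around the complex, all found in the table, was examined at their ends in the same way. Runx1 was called at an end of 26 of the 41, Ezh2 at 7 and H3K27me3 at 8, against the shares over all genes of 45.3%, 18.4% and 30.6%. Runx1 without Ezh2 or H3K27me3 was found at 24 of the 41, against 38.6% of all genes.

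Among the 11 E proteins, paralogues and cofactors, Runx1 was at an end of 6, Ezh2 of 1 and H3K27me3 of 3. The shares over all genes were 45.3%, 18.4% and 30.6%. Cbfa2t2, a paralogue of Cbfa2t3, had Runx1 folds of 78.1 and 60.1 (69.1 ± 12.8, SD, n = 2). Tcf4, the remaining E protein gene, had 16.1 and 17.9 (17.0 ± 1.31, SD, n = 2), and Ssbp2, whose product stabilises Ldb1, had 12.4 and 11.4 (11.9 ± 0.705, SD, n = 2). The paralogue Tal2 differed from Tal1 and Lyl1, with no Runx1 at an end but Ezh2 folds of 12.2 and 5.56 (8.86 ± 4.67, SD, n = 2) and H3K27me3 folds of 2.66 and 2.55. The Tal2 window held 2 Runx1 regions, with a highest mean fold of 14.0. Lmo1 and Ldb2, paralogues of Lmo2 and Ldb1, had H3K27me3 at an end without Ezh2 or Runx1 there, with mean folds of 1.91 and 1.97.

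The 4 Id genes encode inhibitors that take E proteins out of DNA-binding dimers. Id3 was the only gene of the 41 with Runx1, Ezh2 and H3K27me3 all at an end. Its folds were 25.6 and 24.2 for Runx1 (24.9 ± 0.987, SD, n = 2), 10.3 and 6.52 for Ezh2 (8.42 ± 2.69, SD, n = 2), and 2.75 and 2.38 for H3K27me3 (2.56 ± 0.259, SD, n = 2). Id2 had Runx1 alone at an end, with 2.39 and 7.70, which differ by more than their mean, and Id1 and Id4 had none of the 3 at an end. Their windows held more: 2 Ezh2 and 3 H3K27me3 regions for Id2, 8 Runx1 regions for Id1, and regions of all 3 antibodies for Id4.

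Of the 11 DNA-binding partners and their cofactors, 7 had Runx1 alone at an end, against 38.6% of all genes. Zfpm1, the cofactor of GATA factors also called Fog1, had the highest folds of the list, 157 and 122 (140 ± 24.7, SD, n = 2). Sp1 had 72.3 and 59.7 (66.0 ± 8.89, SD, n = 2), and the Runx1 gene itself had 56.0 and 72.0 (64.0 ± 11.3, SD, n = 2). Gata3, a T-lineage factor, and Erg, an ETS factor of stem cells, had Ezh2 and H3K27me3 and no Runx1 at their ends, with mean Ezh2 folds of 5.17 and 5.91 and mean H3K27me3 folds of 2.74 and 3.52. Their windows did hold Runx1 regions, 3 for Gata3 with a highest mean fold of 14.7 and 17 for Erg with 18.3.

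All 5 corepressors of the list had Runx1 at an end, against 45.3% of all genes. Of the 5, 0 had Ezh2 or H3K27me3 at an end, against 18.4% and 30.6% of all genes. Sin3a had 16.2 and 16.2 (16.2 ± 0.0142, SD, n = 2), Rcor1 had 12.2 and 13.0 (12.6 ± 0.589, SD, n = 2), and the deacetylase gene Hdac1 had 7.24 and 6.61 (6.93 ± 0.451, SD, n = 2). Kdm1a and Hdac2 were weaker, with mean folds of 3.15 and 2.51. The corepressor genes shared Runx1 alone at an end with Cbfa2t3, but so did 24 of the 41 listed genes and 38.6% of all genes.

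Among 10 known targets of the complex, Runx1 was at an end of 6, Ezh2 of 3 and H3K27me3 of 2. Over all genes these shares were 45.3%, 18.4% and 30.6%. Nfe2, an erythroid and megakaryocyte factor, had 48.7 and 48.6 (48.7 ± 0.0737, SD, n = 2), Hhex had 15.8 and 15.7 (15.8 ± 0.0330, SD, n = 2), and Meis1 had 7.29 and 9.14 (8.22 ± 1.31, SD, n = 2). Slc4a1, the anion exchanger of red cells, and Bcl11a, a repressor of fetal globin, carried Ezh2 and H3K27me3 at an end and no Runx1. Their mean Ezh2 folds were 2.27 and 6.32, and their mean H3K27me3 folds 2.44 and 3.48. Away from the ends, the Slc4a1 window held 8 Runx1 regions, with a highest mean fold of 36.0, and that of Bcl11a held 4, with 5.63. Meis1 carried weak Ezh2 beside Runx1, with folds of 1.61 and 2.45.

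**Figure D5:**
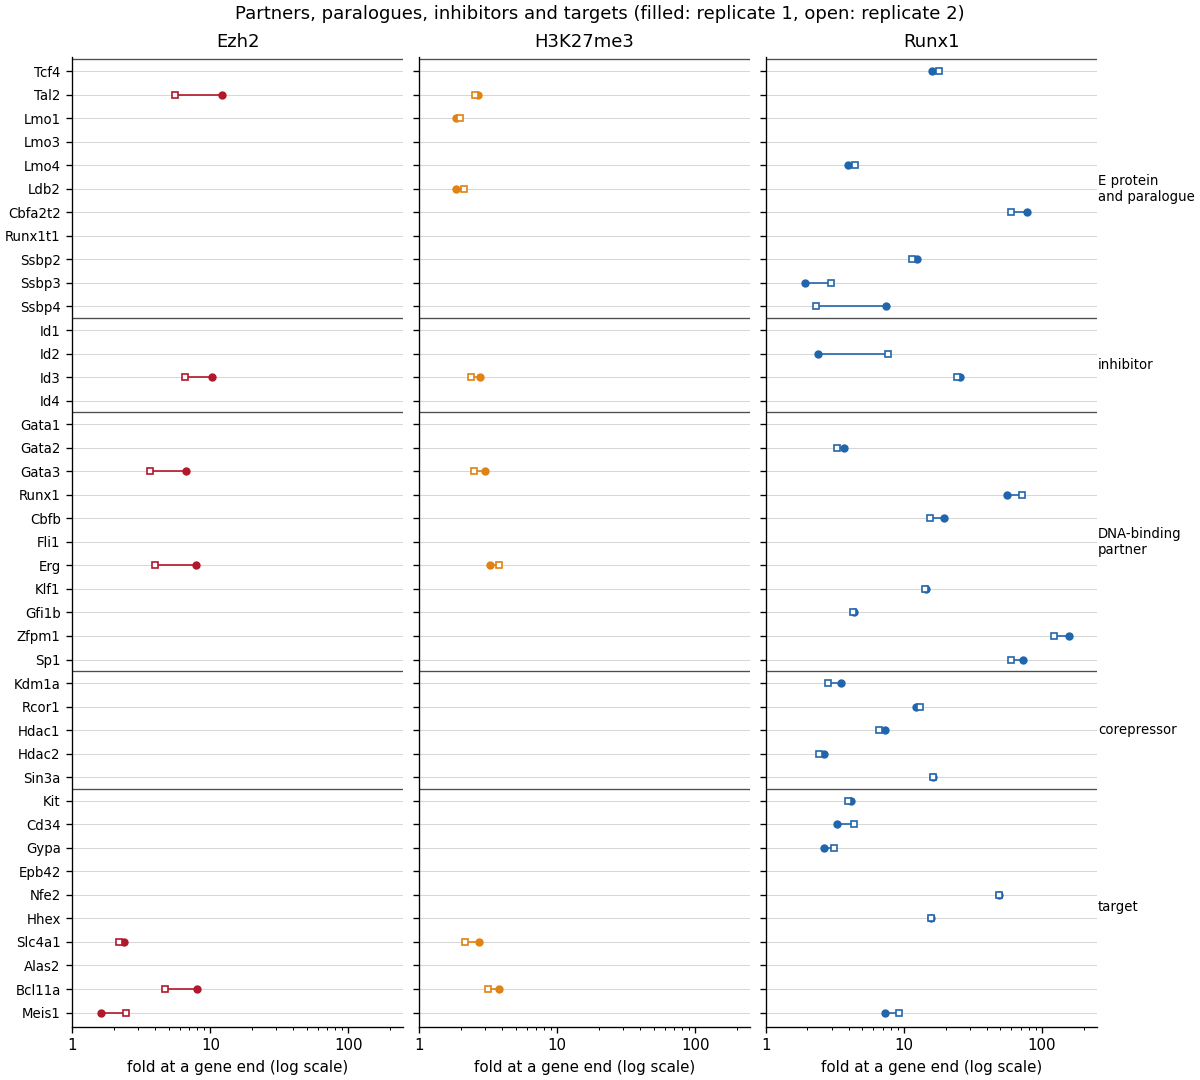
Fold at a gene end (log axes) for Ezh2, H3K27me3 and Runx1 at the 41 genes around the complex, grouped by role, with replicate 1 filled and replicate 2 open; a row without symbols had no end called. Corepressors have Runx1 symbols alone, and Id3 is the only row with symbols in all 3 panels.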

How the data were processed

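The 8 samples were 6 ChIP libraries and 2 inputs; the inputs were not analysed here. Per the submitters' processing notes, the authors used Bowtie2 2.2.1, Picard, SAMtools, MACS2 2.0.10 and build mm10, with roles and parameters not given in the sources used here. Each deposited list gives per peak a score, a fold enrichment (a linear ratio over background), a −log10 p-value and a −log10 q-value, and, for narrow peaks, the summit's offset. The deposited score was not used. The weakest peaks had a p-value of 0.0493 to 0.0499.

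Python 3.11.15, pandas 2.3.3 and numpy 2.4.6 were used. Coordinates count from 1; RefSeq genes and promoters are on GRCm38.p6, the assembly of mm10. Where a region held several peaks of a replicate, the highest fold was taken. Gene ends and windows were called as described above, on all 21887 genes, and the calling was tested on simulated peaks. The members, gene list and motifs were chosen with earlier results of these data known. All 7 genes were named, with their strongest regions; of the wider list, up to 3 genes per role by Runx1 fold and those with Ezh2 or H3K27me3 at an end were named, and other regions or genes named were chosen after their values were seen. Nearest genes lay on another chromosome or over 1 Mb away. Alternatives were q-values of at most 0.01 and 1e-05, a single replicate, an overlap of 50% of the shorter peak, other end stretches and windows of 25 and 100 kb.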

Additional observations from a re-analysis of the deposited data

How the results depend on the processing

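The 5 genes with Runx1 at an end were Tal1, Lyl1, Cbfa2t3, Tcf3 and Tcf12. They were the same under every alternative that enters the call at an end, and H3K27me3 stayed at an end of 0 of the 7 genes. The windows of 25 and 100 kb do not enter that call. Ezh2 was called at an end of 0 to 1 genes when a replicate was left out: the 1 was Tcf12 in replicate 1 alone. Windows with Ezh2 were 2 of the 7 at a q-value of at most 0.01 (34.0% of all genes), 0 at 1e-05 (16.8%) and 1 with 25 kb (49.4%). Those with H3K27me3 were 1 (13.7%) and 0 (1.43%) at these q-values, and the 1 was Tcf3, whose replicate 2 passed only outside the window. The median of Ezh2 regions per 100 kb was 0 at both q-values and with 25 kb, and so was that of all genes. It was 4.15 with 100 kb (1.54 over all genes), 3.54 without replicate 2 (4.55 over all genes) and 4.62 without replicate 1 (3.67 over all genes). For H3K27me3 it was 0 at both q-values, as over all genes, 0.63 with 25 kb (2.75 over all genes) and 4.92 with 100 kb (4.05 over all genes). For Runx1 it was 3.47 at 1e-05, against 1.78 over all genes. With 25 kb the strongest Runx1 region had a fold of 8.81 for Lmo2 and 13.4 for Ldb1, since the neighbours' ends lay outside; in single replicates that of Ldb1 was 36.2 to 38.0. The cause of the other shifts was not tested. Of the other values for single genes, 84 stayed within the spread or within 1.5 times and 63 moved. Unknown depth and weak Ezh2 and H3K27me3 lists limit what an absent peak shows. No paired analysis was possible because the results come from no test.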
